A study of Mus musculus with 23 samples.

Results

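Janus kinases (JAKs) and the phosphatases that remove phosphate from STAT proteins were followed as 8 transcripts in single cells of bone marrow (BM), lymph node (LN) and spleen: the 4 kinases Jak1, Jak2, Jak3 and Tyk2, and the 4 phosphatases Ptpn1 (PTP1B), Ptpn2 (TC-PTP), Ptpn6 (SHP-1) and Ptpn11 (SHP-2). They are listed by symbol with no threshold on a measured value, although the set was put together with earlier results of these data known, and all 8 were found among the 32285 genes of the series. Mice were 2-month-old animals, of the strain C57BL/6 in the labels and C57BL/6N in the methods, with the native Stat5b gene (WT) or with an edited germline allele in which the same tyrosine of STAT5B is replaced by phenylalanine (Y665F) or histidine (Y665H). Per the methods of the study, Y665F was made with Cas9 and an oligonucleotide donor and Y665H with a base editor, so that every cell of a mouse carries the allele and no transgene or Cre drives it. LN gave 7 libraries, from WT (n = 2), heterozygous Y665F (het, n = 3) and homozygous Y665F (homo, n = 2) mice. BM gave 6 libraries, with n = 2 for each of WT, Y665F and Y665H. Spleen gave 3, with 1 library of CD45+ cells per genotype, and the cells of several mice were combined in each. The labels give zygosity for LN and not for BM or spleen, they name no treatment, and nothing states that LN replicates came from separate animals, so p-values there measure the spread between these libraries. For BM the labels do not state it either, but the 2 libraries of a genotype were of opposite sex by their RNA and so not of 1 animal.

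As background, cytokine receptors of the hematopoietic system have no kinase of their own and hold JAKs on their cytoplasmic tails. When a cytokine joins the receptor chains, the JAKs phosphorylate each other, the receptor and then STAT proteins, which pair and enter the nucleus. JAK3 binds the common gamma chain of the interleukin-2 receptor family and works beside JAK1 in lymphocytes, JAK2 serves the erythropoietin and growth hormone receptors, and TYK2 serves interferon and interleukin-12 family receptors. PTPN1 and PTPN2 are closely related phosphatases that remove phosphate from JAKs and STATs, PTPN6 is an inhibitor of signaling in hematopoietic cells, and PTPN11 mostly promotes growth factor signaling through the RAS pathway. These data measure RNA, not phosphorylation.

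Libraries held between 4613 and 9220 barcodes in LN, 5268 and 8212 in spleen and 4420 and 18742 in BM, with medians of 368 to 3116, 5046 to 6487 and 1617 to 2809 unique molecular identifiers (UMIs, counted transcripts) per barcode. Y665F het replicate 3 and Y665F homo replicate 1 of LN stood apart: 96.4% and 95.8% of their barcodes held fewer than 500 genes. In BM, Y665F replicate 2 stood apart the other way, with no barcode under 1179 UMIs and 0% under 500 genes, where the other BM libraries started at 500 UMIs and had 8.89% to 13.9% under 500 genes. The fits were therefore repeated with at least 1200 UMIs per barcode in every BM library, which kept every member call of BM. No 2 libraries shared more than 2.89% of the barcodes of the smaller one. In BM, replicate 1 of each genotype carried Xist RNA (232.7 to 821.9 CPM over all cells, where CPM are UMIs scaled to the same total in every library or class) with almost no Y-linked RNA, and replicate 2 the reverse, so the replicate number there is also the sex, whereas the methods name male mice. Cells were sorted into classes by marker gates that use none of the 8 genes. LN classes were CD8 T cells without and with a Ccl5 UMI (Ccl5, a chemokine of memory and effector T cells), conventional CD4 T cells, Foxp3+ regulatory T cells (Treg) and B cells. BM classes were stem/multipotent cells, granulocyte-monocyte progenitors (GMP), monocytes, erythroid cells and B lineage cells. Klf1 (131.2 to 224.2 CPM) and Car1 (1121 to 9751 CPM) in erythroid cells and Elane (1310 to 5236 CPM) in GMP are gate genes. Their presence in every library follows from the gating and is no check of it. Of genes outside the gates, erythroid cells held Gata1 (87.6 to 173.3 CPM) and Tfrc (61.8 to 131.2 CPM). GMP held Kit (50.3 to 183.0 CPM) and Fcgr3 (10.03 to 32.7 CPM), but Kit was also at 101.7 to 240.0 CPM in stem/multipotent cells. Elane, a gate gene of GMP, was also found in erythroid cells (45.0 to 139.8 CPM) and in stem/multipotent cells (114.1 to 235.6 CPM). Ctla4, also outside the gates, was at 0 in 1 LN Treg class. Megakaryocyte (28 to 242 cells), neutrophil (2 to 166) and basophil/mast (3 to 15) gates of BM held too few cells in a library to be tested.

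STAT5 binds DNA at the letters TTCNNNGAA, and other STATs also at the same letters with 1 more base in the middle. Windows of 300 bases around gene starts (250 before, 50 after; RefSeq, GRCm38.p6) were matched for 7 of the 8 members, all but Ptpn2, and were searched for both motifs, which read the same on both strands. None of the 7 windows held either motif, against 8.47% of 27025 windows of that length with TTCNNNGAA and 6.99% with the longer form. Beside shares this low, the lack of a match in only 7 windows is no result about the members. The sequence before Jak2 and before Jak3 is shown because these are the kinases whose RNA was higher in Y665F BM. From the start of Cish, a STAT5 target that codes for a signaling inhibitor, 30 bases are shown as an example of the motif. Cish was picked as a known target, so it is no measure of what the 7 windows should hold. Capitals mark TTCNNNGAA.
Jak2, chr19:29251553-29251802, plus strand: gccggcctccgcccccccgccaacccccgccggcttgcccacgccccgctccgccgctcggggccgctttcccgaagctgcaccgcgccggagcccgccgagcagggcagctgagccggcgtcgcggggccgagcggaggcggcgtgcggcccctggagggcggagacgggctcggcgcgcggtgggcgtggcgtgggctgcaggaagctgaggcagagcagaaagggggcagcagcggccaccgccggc
Jak3, chr8:71676133-71676295, plus strand, up to the first annotated start: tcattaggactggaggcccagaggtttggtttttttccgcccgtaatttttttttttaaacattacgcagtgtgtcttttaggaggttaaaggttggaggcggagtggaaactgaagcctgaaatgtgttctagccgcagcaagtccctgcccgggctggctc
Cish, chr9:107296654-107296683, plus strand: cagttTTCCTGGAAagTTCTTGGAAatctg
The Jak2 window is rich in G and C (81% of its 300 bases, 54.3% for Jak3). Cish held the motif 2 times in its window and Socs3, another inhibitor, 1 time. A motif is a match of letters and says nothing of binding, and its absence here covers only this window.

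Genome positions are those of GRCm38 with the GENCODE vM21 genes. Jak1 lies at chr4:101152367-101265282 on the minus strand, Jak2 at chr19:29251828-29313080 on the plus strand, Jak3 at chr8:71676296-71690575 on the plus strand and Tyk2 at chr9:21104068-21131243 on the minus strand. Ptpn1 lies at chr2:167932057-167979385 on the plus strand, Ptpn2 at chr18:67665511-67724595 on the minus strand, Ptpn6 at chr6:124720707-124738714 on the minus strand and Ptpn11 at chr5:121130533-121191397 on the minus strand. Insl3 overlaps Jak3 on the same strand, so UMIs of Jak3 are uncertain to the extent that the counting could not split them. Raver2, 1700084C06Rik and Gm20531 overlap Jak1, Tyk2 and Ptpn6 on the opposite strand.

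In BM, kinases and 1 phosphatase differed between Y665F and WT. Jak2 and Jak3 RNA was higher in Y665F over all cells. Jak2 was also called higher in GMP and Ptpn2 lower in erythroid cells, and both of these calls depended on the scaling between libraries. Calls are from edgeR at an adjusted p under 0.05 over all genes of the class. That fit had no term for the replicate number, which is also the sex, and calls with it as a block are given apart. Of 44 member and class tests, 4 passed, against a background of 16.7% of all gene and class tests over the 6 classes. The share of member tests called was below this background, so nothing is read from the count itself. The fit scales each library by a TMM factor (trimmed mean of M values) on top of its total, whereas the CPM printed here use the total alone, so the 2 scales can differ. Over all cells the factors were 0.92 and 1.14 in WT, 1.12 and 1.17 in Y665F and 0.84 and 0.87 in Y665H (lowest and highest library of each). Fitted without TMM, the median of all genes stood at 0.19 for Y665F against WT (0.03 with TMM), at -0.27 for Y665H against WT (-0.01) and at 0.49 for Y665F against Y665H (0.07), and the share of called genes that were higher went from 47.6% to 60.04% and, against Y665H, from 51.1% to 77.3%. Directions given below are therefore relative to the bulk of genes, and the text says where a call was lost without TMM.

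Jak2, the kinase of the erythropoietin receptor, was measured over all cells at 19.8 and 14.3 CPM in WT, at 28.8 and 41.3 CPM in Y665F and at 13.7 and 14.3 CPM in Y665H. Both Y665F libraries lay above all 4 others, in the female pair of libraries as in the male pair. The log2 fold change of Y665F against WT was 0.89 ± 0.22 (SE; edgeR adjusted p = 0.0078). Jak3, the common gamma chain kinase, was at 9.42 and 7.86 CPM in WT, at 21.5 and 19.8 CPM in Y665F and at 4.98 and 9.71 CPM in Y665H, again with no overlap between Y665F and the others. For Y665F against WT it differed by 1.10 ± 0.29 (adjusted p = 0.0094). Over all cells 2 of 8 members were called, beside 30.8% of 13638 genes. The call of Jak3 held under every alternative run, while that of Jak2 was lost without Y665F replicate 2 (0.65, adjusted p = 0.12) and, at 0.89, with a log2 fold change over 1 also required.

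**Figure D1:**
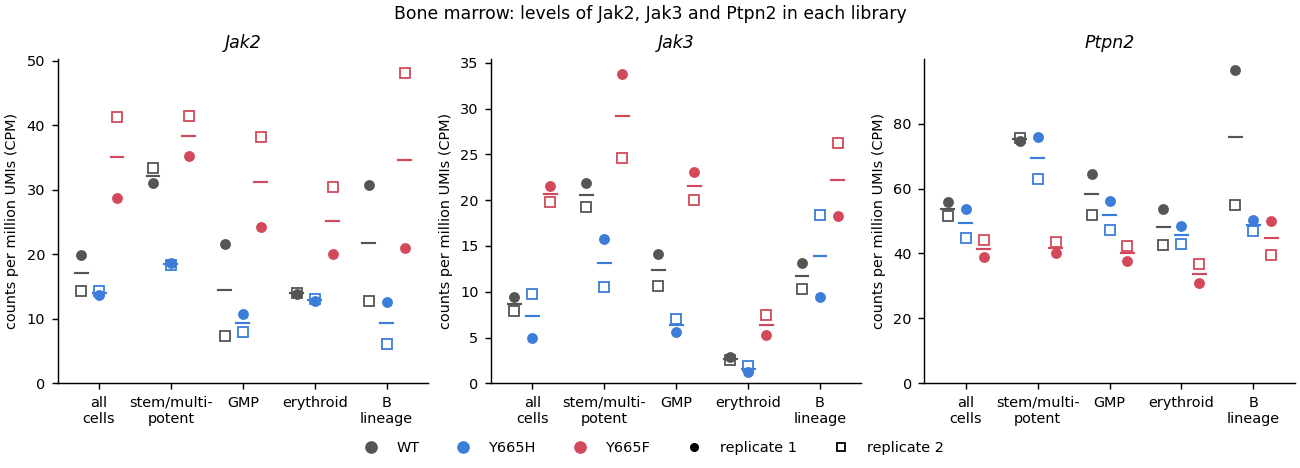
Level of Jak2, Jak3 and Ptpn2 (y axis, CPM from 0) in bone marrow, over all cells and in 4 classes, with 1 point per library (filled circle for replicate 1, open square for replicate 2), colors for the genotype and a short line at the mean of 2 libraries. Jak2 and Jak3 of Y665F lay above the other genotypes over all cells (28.8 and 41.3 CPM for Jak2), and Ptpn2 of Y665F below them over all cells and in stem/multipotent, GMP and erythroid cells.

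The makeup of the marrow moved with these values. Stem/multipotent cells were 13.5% and 13.6% of cells in Y665F, 7.9% and 4.8% in WT and 3.3% and 2.4% in Y665H. Erythroid cells were 5.4% and 2.7% in Y665F and between 10.0% and 21.2% in the other 4 libraries, and Jak3 was lowest of the 5 classes in erythroid cells and highest in stem/multipotent cells (3.56 ± 2.37 and 21.0 ± 7.98 CPM, SD, n = 6 libraries). Summed neutrophil transcripts (S100a8, S100a9, Ngp, Camp, Ltf and Lcn2) were at 3668 and 1301 CPM in Y665F and 38.9 to 228.6 CPM elsewhere over all cells, and at 956 and 299.0 CPM against 14.5 to 63.4 CPM within GMP. Mitochondrial RNA was 1.67% and 2.17% of UMIs in Y665F and 1.02% to 1.61% in the others. Their part in the results over all cells was not tested. Values within classes follow.

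Within GMP, Jak2 was at 21.6 and 7.41 CPM in WT (49 and 25 UMIs), at 24.3 and 38.1 CPM in Y665F (293 and 517 UMIs) and at 10.7 and 8.004 CPM in Y665H. The log2 fold change of Y665F against WT was 1.13 ± 0.32 (edgeR adjusted p = 0.026), and 1 of 8 members was called beside 15.9% of 11059 genes. WT replicate 1 came close to the lower Y665F library, and the call was lost without WT replicate 2 (0.69, adjusted p = 0.20), without Y665F replicate 2 (0.83, adjusted p = 0.21), with DESeq2 (1.10, adjusted p = 0.058) and without TMM (1.15, adjusted p = 0.11). Jak3 was at 14.1 and 10.7 CPM in WT, at 23.06 and 19.99 CPM in Y665F and at 5.63 and 7.04 CPM in Y665H. The Y665F difference from WT of 0.73 ± 0.29 missed the threshold (adjusted p = 0.089), though the libraries did not overlap.

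Ptpn2, the T-cell phosphatase that acts on JAK1, JAK3 and several STATs, was the member called lower. In erythroid cells it was at 53.6 and 42.6 CPM in WT, at 30.8 and 36.8 CPM in Y665F and at 48.6 and 42.8 CPM in Y665H. Both Y665F libraries lay below all others. It fell by 0.67 on the log2 scale (SE 0.22, edgeR adjusted p = 0.023), the 1 member called among 8 beside 27.5% of 10096 genes. The call was lost when any 1 of the WT or Y665F libraries was left out (between -0.78 and -0.58, adjusted p between 0.054 and 0.14), and without TMM (-0.53, adjusted p = 0.10). Over all cells Ptpn2 was at 56.0 and 51.5 CPM in WT, at 38.8 and 44.1 CPM in Y665F and at 53.7 and 44.9 CPM in Y665H, with a log2 fold change of Y665F against WT of -0.54 ± 0.20 (adjusted p = 0.053; -0.37 and 0.25 without TMM). In stem/multipotent cells it was at 74.7 and 75.6 CPM in WT, at 40.1 and 43.6 CPM in Y665F and at 75.9 and 62.9 CPM in Y665H. The Y665F difference from WT of -0.78 ± 0.28 had an adjusted p of 0.11 in a class with 3.68% of 8199 genes called. In GMP the difference was -0.61 ± 0.23 (adjusted p = 0.081). Y665F Ptpn2 thus lay below all 4 other libraries over all cells and in stem/multipotent, GMP and erythroid cells, but not in B lineage cells, where it was at 96.6 and 55.1 CPM in WT, at 50.1 and 39.4 CPM in Y665F and at 50.4 and 47.0 CPM in Y665H, nor in monocytes.

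Stem/multipotent cells had the highest mean of Jak2 and of Jak3 among the classes, and no member was called there. Jak2 was at 31.0 and 33.3 CPM in WT, at 35.3 and 41.4 CPM in Y665F and at 18.6 and 18.3 CPM in Y665H (Y665F against WT 0.32 ± 0.32, adjusted p = 0.62). Jak3 was at 21.8 and 19.2 CPM in WT, at 33.8 and 24.6 CPM in Y665F and at 15.8 and 10.5 CPM in Y665H (Y665F against WT 0.59 ± 0.36, adjusted p = 0.37). For both genes the order was Y665F, WT, Y665H without overlap, while the differences from WT did not pass the test. In monocytes, a class of 74 to 132 cells a library, Jak2 was below the filter on low counts, at 20.7 and 24.4 CPM in WT, at 23.6 and 51.7 CPM in Y665F and at 6.74 and 10.4 CPM in Y665H.

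Erythroid cells were the 1 class in which every correlation of same-numbered deviations was over 0.1 (between 0.104 and 0.284), although the replicate number is also the sex in every class. With the number as a block, 4 members were called there in Y665F against WT: Ptpn2 at -0.68 (adjusted p = 0.011), Jak1 at -0.64 (adjusted p = 0.027), Jak2 at 0.64 (adjusted p = 0.029) and Jak3 at 1.05 (adjusted p = 0.049). The share of all genes called with the block is not reported here, so nothing is read from the count. Without the block, Jak1 was at -0.62 ± 0.25 (adjusted p = 0.065), Jak2 at 0.64 ± 0.25 (adjusted p = 0.056) and Jak3 at 1.04 ± 0.45 (adjusted p = 0.086). Erythroid Jak2 was called without TMM (edgeR, 0.80, adjusted p = 0.040) and stood at 0.84 without Y665F replicate 1. Jak1, the kinase shared by most cytokine receptor families, was at 143.9 and 133.6 CPM in WT, at 107.8 and 90.9 CPM in Y665F erythroid cells and at 154.4 and 101.0 CPM in Y665H, so Y665H replicate 2 lay within the Y665F range. Jak3 values in erythroid cells rest on 8 to 32 UMIs a library. The hemoglobin transcripts of the class were at 59.2 and 176.0 CPM in Y665F and 116.8 to 238.9 CPM in the others, and neutrophil transcripts at 77.1 and 104.1 CPM against 3.97 to 12.2 CPM. Their part was not tested.

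**Figure D2:**
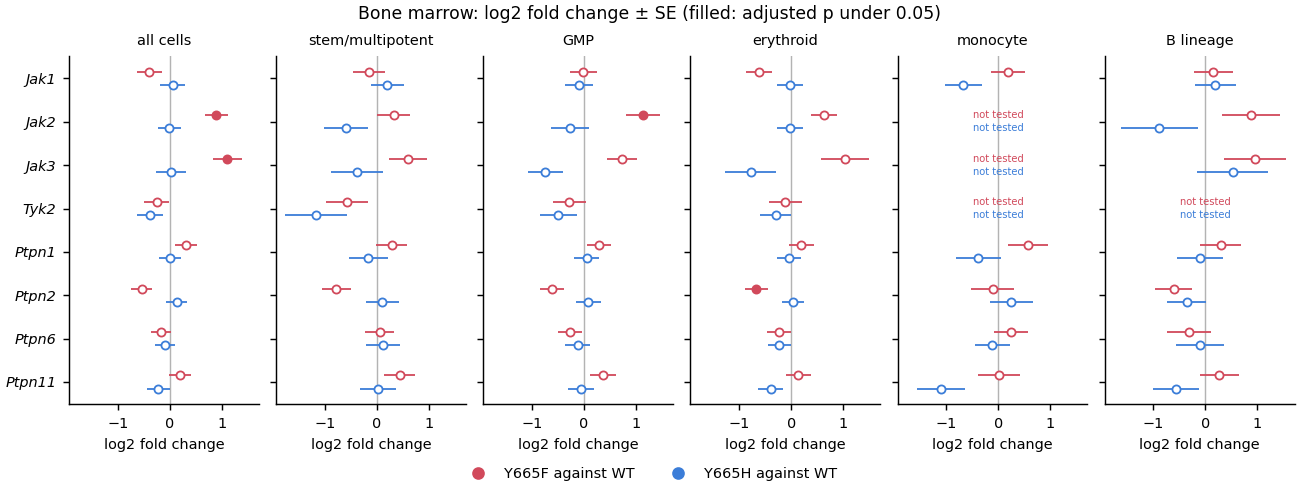
Log2 fold change ± SE (x axis) of each of the 8 members (y axis) in 6 sets of bone marrow cells, for Y665F against WT and Y665H against WT (n = 2 libraries each); filled points passed an adjusted p under 0.05 in edgeR, and members below the filter on low counts are marked as not tested. The 4 filled points are Jak2 and Jak3 over all cells, Jak2 in GMP and Ptpn2 in erythroid cells, all in Y665F. The fit shown had no replicate block.

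The other members of Y665F BM were not called against WT in any class. Jak1 was at 148.0 and 134.0 CPM over all cells in WT and 126.7 and 113.1 CPM in Y665F, below both WT libraries (-0.39 ± 0.24, adjusted p = 0.23). In erythroid cells it was called with doublets kept (-0.70, adjusted p = 0.036) and without Y665F replicate 1 (-0.89, adjusted p = 0.012), beside the block above. Tyk2 was at 15.3 and 9.29 CPM over all cells in WT and 12.6 and 9.85 CPM in Y665F (-0.25 ± 0.24, adjusted p = 0.45). Ptpn1 was at 39.2 and 24.1 CPM in WT and 42.2 and 43.6 CPM in Y665F (0.31 ± 0.21, adjusted p = 0.27). The Y665F libraries lay between those of WT for Tyk2 and just above the higher WT library for Ptpn1. Ptpn6 was at 67.3 and 50.7 CPM in WT and 56.7 and 59.4 CPM in Y665F (-0.17 ± 0.20, adjusted p = 0.53). Ptpn11 was at 63.1 and 41.1 CPM in WT and 66.0 and 65.2 CPM in Y665F (0.20 ± 0.22, adjusted p = 0.51). For Ptpn6 they again lay between those of WT, and for Ptpn11 just above the higher one. WT replicate 1 was above WT replicate 2 for all 8 members over all cells.

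No difference between Y665H and WT BM was detectable at this depth and with n = 2 libraries of opposite sex per genotype. None of the 44 member and class tests was called with edgeR, with 2 at an unadjusted p under 0.05 (Ptpn11 in monocytes, -1.10 ± 0.46, and Jak3 in GMP, -0.74 ± 0.34), and DESeq2 called 0 as well, with 0 at that unadjusted p. The background was 0% of 54809 tests, since no gene was called in any class by either tool (679 of 13638 genes over all cells were at an unadjusted p under 0.05). Beside this, 0 of 44 is no result about the members. Over all cells the fitted log2 fold changes ran from -0.37 ± 0.25 (Tyk2) to 0.13 ± 0.20 (Ptpn2), while the mean CPM of all 8 members was lower in Y665H than in WT (49.3 and 53.7 CPM for Ptpn2). Without TMM the fitted values ran from -0.66 ± 0.32 (Tyk2) to -0.12 ± 0.24 (Ptpn2), so the sign of Ptpn2, Jak1, Jak3 and Ptpn1 turned with the scaling. That fit called 0 members and 3 genes over all cells.

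Set against Y665H, Y665F BM again had higher Jak2 and Jak3, and lower Ptpn2, the last not called with library totals alone. Of 44 tests, 9 passed, beside 25.4% of all gene and class tests, a share of members below the background. Jak2 was higher over all cells (log2 fold change 0.90 ± 0.22, adjusted p = 0.0046), in GMP (1.39 ± 0.32, adjusted p = 0.0049) and in erythroid cells (0.66 ± 0.25, adjusted p = 0.040). Jak3 was higher over all cells (1.08 ± 0.28, adjusted p = 0.0066), in GMP (1.47 ± 0.30, adjusted p = 0.0025) and in erythroid cells (1.82 ± 0.48, adjusted p = 0.0049). Ptpn2 was lower over all cells (-0.67 ± 0.20, adjusted p = 0.014), in GMP (-0.69 ± 0.23, adjusted p = 0.032) and in erythroid cells (-0.71 ± 0.22, adjusted p = 0.015). In each of these sets 3 of 8 members were called, beside 44.3%, 31.4% and 33.5% of all genes. Without TMM the 6 calls of Jak2 and Jak3 were made too, and those of Ptpn2 were lost over all cells (-0.25, adjusted p = 0.39), in GMP (-0.37, adjusted p = 0.31) and in erythroid cells (-0.46, adjusted p = 0.14). Ptpn1 (0.72, adjusted p = 0.030) and Ptpn11 (0.83, adjusted p = 0.011) over all cells and Ptpn11 in erythroid cells (0.76, adjusted p = 0.025) were called in their place. All 9 calls were lost without Y665H replicate 1, where the log2 fold changes ran from -0.67 to 1.55. Without Y665F replicate 2, Jak2 lost its call over all cells (0.68, adjusted p = 0.071) and in erythroid cells (0.47, adjusted p = 0.25), and without Y665H replicate 2 in GMP (1.27, adjusted p = 0.058) and in erythroid cells (0.66, adjusted p = 0.096). The erythroid Jak2 call was also lost with DESeq2 (0.66, adjusted p = 0.14), with no filter on low counts (0.61, adjusted p = 0.094) and without WT replicate 2 (0.62, adjusted p = 0.055). Ptpn2 in GMP lost its call with no filter on low counts (-0.66, adjusted p = 0.055) and when any 1 of the Y665F or Y665H libraries was left out (adjusted p up to 0.21). Over all cells its call was lost without either Y665F library (adjusted p = 0.084 and 0.066), and in erythroid cells without Y665F replicate 1 (adjusted p = 0.059). With the replicate block, erythroid Jak1 (-0.60, adjusted p = 0.036) and Ptpn11 (0.53, adjusted p = 0.042) were also called, as was Jak2 in B lineage cells (1.76, adjusted p = 0.042; 0.14 without the block), on 3 to 33 UMIs a library. With doublets kept, Jak2 was called in stem/multipotent cells (1.15, edgeR adjusted p = 0.037, against 0.12 in the main fit). It was then also called in monocytes (2.01, adjusted p = 0.034), where the main filter left it out. Ptpn2 in stem/multipotent cells missed the threshold in the main fit (adjusted p = 0.059), and stood at -0.87 without WT replicate 1 and -0.90 without WT replicate 2. This comparison and that of Y665F with WT share the Y665F libraries.

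Whether the effect of a genotype differed between classes of the same libraries was tested for GMP against erythroid cells in BM and CD8 against CD4 T cells in LN. None of the 32 member tests passed (edgeR), with 5 at an unadjusted p under 0.05. Of all genes, 0.515% (Y665F) and 0.00859% (Y665H) were called in BM and 0.29% (homo) and 0.36% (het) in LN, so 0 of 32 is no result about the members. For Jak1 in Y665F BM, the difference between GMP and erythroid cells was 0.69 ± 0.24 (adjusted p = 0.24). For Ptpn2 in Y665F homo LN, the difference between CD8 and CD4 T cells was 1.23 ± 0.39 (adjusted p = 0.21).

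The rest of the pathway was read from 3 lists. In Y665F BM, 9 of 27 JAK-STAT regulators and STATs were called higher and 0 lower over all cells (median log2 fold change 0.42, beside 0.03 for all genes), 8 higher and 1 lower in GMP (median 0.39), 10 of 26 tested higher in erythroid cells (median 0.55) and 3 of 23 higher in stem/multipotent cells. Of all genes, 30.8%, 15.9%, 27.5% and 3.68% were called in these 4 sets in either direction, and the list counts here and below are a description beside those shares. The largest in GMP were the inhibitors Socs2 (5.35 ± 0.44), Cish (2.91 ± 0.41) and Socs3 (2.62 ± 0.52), with adjusted p values of 2.33e-06, 0.00093 and 0.0042. Of 18 other protein tyrosine phosphatases, 6 were called higher and 2 lower over all cells, 3 of 17 higher in GMP, and 5 higher and 1 lower of 17 in erythroid cells. Those with the largest changes were Ptprc (CD45; 1.57 ± 0.30) and Ptprs (1.40 ± 0.26) in erythroid cells and Ptpn12 (1.41 ± 0.29) in GMP. Of the cytokine receptor chains, 5 were called higher and 5 lower of 20 over all cells, and 3 higher and 3 lower of 12 in erythroid cells. In erythroid cells Csf2rb, the common beta chain that binds JAK2, was higher by 4.61 ± 0.96 and Il4ra by 2.38 ± 0.75 on the log2 scale. Those called lower there were Il2rg, the common gamma chain that binds JAK3 (-1.02 ± 0.30), Il10rb (-0.79 ± 0.27) and Epor, the erythropoietin receptor (-0.71 ± 0.23), named after their values were seen. Without TMM, 1 chain was called lower in erythroid cells, so at most 1 of Il2rg, Il10rb and Epor kept its call. In GMP, 3 regulators were called higher and 0 lower without TMM. Y665H called 0 genes of any list. The neutrophil transcripts given above moved with these lists too.

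In LN, no member was called in any Y665F comparison. Of 53 tests, 0 passed for homo against WT, for het against WT and for homo against het (edgeR), with 6, 2 and 2 at an unadjusted p under 0.05. DESeq2 called 0 in each, with 1, 0 and 0 at that unadjusted p. Backgrounds were 1.59%, 0.566% and 0.0251% of 51772 gene and class tests, and beside these 0 of 53 is no result about the members. The first 2 comparisons share the WT libraries.

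**Figure D3:**
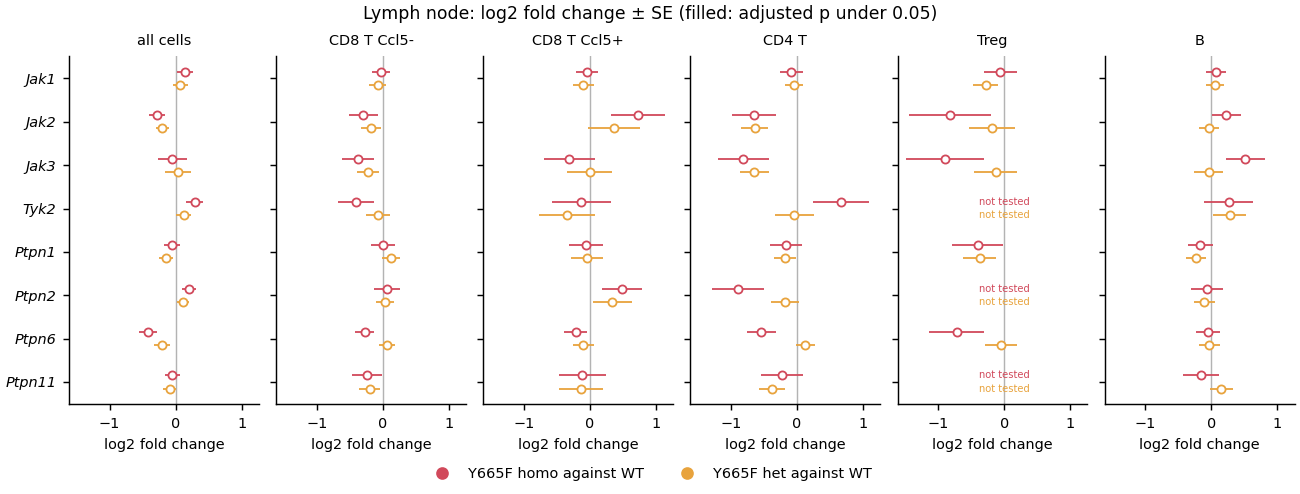
Log2 fold change ± SE (x axis) of each of the 8 members (y axis) in 6 sets of lymph node cells, for Y665F homo (n = 2) and het (n = 3) against WT (n = 2). No point is filled, that is, none passed an adjusted p under 0.05 in edgeR, and the widest errors are those of Treg, where Tyk2, Ptpn2 and Ptpn11 were not tested.

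In CD8 T cells the 8 members of homo lay within 0.32 of WT on the log2 scale. Jak1 was at 607.9 and 701.9 CPM in WT, between 588.9 and 712.4 CPM in het, and the homo libraries at 693.0 and 628.4 CPM (0.04 ± 0.13, adjusted p = 0.93). Ptpn2 was at 58.8 and 58.3 CPM in WT, between 61.9 and 67.2 CPM in het, and the homo libraries were at 70.6 and 68.5 CPM (0.30 ± 0.15, adjusted p = 0.38), so that the 3 genotypes did not overlap. Jak3 was at 44.3 and 62.3 CPM in WT and 55.5 and 38.5 CPM in homo (-0.32 ± 0.22, adjusted p = 0.56), with overlap. Of all genes 1.77% were called in this class. Values in the 2 sets split by Ccl5 were not those of the whole, and no member was called in either. Jak2 was at 54.1 and 55.5 CPM in WT and 32.0 and 48.8 CPM in homo without Ccl5 (-0.30 ± 0.22, adjusted p = 0.73), but at 21.7 and 37.9 CPM in WT, from 3 and 11 UMIs, and 55.9 and 52.1 CPM in homo with Ccl5 (0.72 ± 0.41, adjusted p = 0.71). Tyk2 without Ccl5 was at 33.1 and 34.4 CPM in WT and 26.1 and 24.9 CPM in homo (-0.40 ± 0.27, adjusted p = 0.70). Ptpn2 without Ccl5 was at 57.3 and 59.3 CPM in WT and 63.9 and 58.7 CPM in homo, with overlap, and the median of the 8 members there was -0.26 against -0.03 in the whole class. Summed memory transcripts (such as Nkg7, Cxcr3 and Cd44) stood in a ratio to naive ones (such as Ccr7 and Lef1) of 0.79 and 0.64 in WT, 1.22 to 1.57 in het and 1.95 and 2.34 in homo in CD8 T cells as a whole. Without Ccl5 the ratio was 0.58 and 0.48 in WT, 0.53 to 0.58 in het and 0.72 and 0.51 in homo. Its part in the member values was not tested.

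Over all LN cells, Ptpn6, the hematopoietic inhibitor SHP-1, was at 447.8 and 364.8 CPM in WT, between 294.9 and 351.0 CPM in het, and the homo libraries were at 292.0 and 278.3 CPM. WT lay above all other libraries, and homo below them. The homo difference of -0.42 ± 0.13 missed the threshold (adjusted p = 0.11), but was called with no filter on low counts (-0.45, adjusted p = 0.0080), without WT replicate 2 (-0.59, adjusted p = 0.040) and without TMM (-0.51, adjusted p = 0.044). B cells, the class with the highest Ptpn6 level, were 44.4% and 28.0% of cells in WT, 12.8% to 24.6% in het and 10.98% and 16.3% in homo. Within B cells Ptpn6 was at 771.0 and 795.3 CPM in WT and 716.0 and 784.4 CPM in homo (-0.05 ± 0.18, adjusted p = 0.98) with overlap. In CD8 T cells as a whole it was at 273.1 and 241.8 CPM in WT and 252.3 and 247.7 CPM in homo (0.01 ± 0.13, adjusted p = 0.99), within the WT range. In CD4 T cells and in each of the CD8 T cell sets split by Ccl5, homo lay below WT without overlap and no difference passed the test. In CD8 T cells without Ccl5, Ptpn6 was at 264.0 and 231.7 CPM in WT and 206.2 and 199.1 CPM in homo (-0.28 ± 0.15, adjusted p = 0.63). In CD8 T cells with Ccl5 it was at 353.9 and 344.7 CPM in WT and 315.7 and 287.5 CPM in homo (-0.22 ± 0.18, adjusted p = 0.81), and in CD4 T cells at 266.6 and 221.9 CPM in WT and 194.4 and 152.3 CPM in homo. The part of the class shares in the difference over all cells was not tested. The other 7 members over all cells ran from -0.28 ± 0.12 (Jak2, adjusted p = 0.21) to 0.29 ± 0.13 (Tyk2, adjusted p = 0.23).

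In conventional CD4 T cells the estimates were larger than in CD8 T cells as a whole, with wide errors and no call. Homo differences were -0.90 ± 0.40 for Ptpn2 (adjusted p = 0.52), -0.81 ± 0.38 for Jak3 (adjusted p = 0.59), -0.65 ± 0.34 for Jak2 (adjusted p = 0.63) and -0.54 ± 0.22 for Ptpn6 (adjusted p = 0.44). Ptpn2 was at 101.9 and 67.5 CPM in WT, 61.0, 77.8 and 18.8 CPM in het and 0 and 44.9 CPM in homo. The 0 is of 46287 UMIs in 106 cells of the shallow homo replicate 1, which allows up to 64.8 CPM. Jak2 was at 88.9 and 93.4 CPM in WT, 46.6, 75.2 and 94.1 CPM in het (-0.64 ± 0.20, adjusted p = 0.32) and 108.0 and 49.9 CPM in homo, so the genotypes overlapped. Jak3 was at 39.2 and 82.3 CPM in WT and between 38.9 and 56.4 CPM in het (-0.65 ± 0.22, adjusted p = 0.42), a difference called only without WT replicate 1 (-0.88, adjusted p = 0.039). Homo against het, Ptpn6 differed by -0.67 ± 0.20 (adjusted p = 0.48), at 194.4 and 152.3 CPM in homo and between 240.1 and 301.0 CPM in het. Within Treg the shallow libraries held 33 and 40 cells, and Tyk2 and Ptpn11 were at 0 UMIs in both, which allows up to 200.1 and 169.7 CPM.

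Of the other genes of the pathway, 1 of 12 phosphatases was called higher in homo CD8 T cells (Ptpn4, 0.86 ± 0.19, adjusted p = 0.014), and 3 of 15 receptor chains higher and 2 lower, beside 1.77% of all genes in that class. Nothing particular to the lists is read from these counts. The largest of these were Il10ra (1.34 ± 0.28, adjusted p = 0.0091), Ifngr2 (-1.09 ± 0.25, adjusted p = 0.023) and Il2rb (1.01 ± 0.16, adjusted p = 0.00057), the beta chain that pairs JAK1 with the JAK3-bound gamma chain. Medians of these 2 lists were 0.03 and 0.18, beside 0.01 for all genes (-0.02, 0.12 and -0.05 without TMM).

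Across LN classes, Ptpn6 stood apart in B cells. It was at 764.2 ± 89.7 CPM (mean ± SD, n = 7 libraries) in B cells, 319.5 ± 24.5 in CD8 T cells with Ccl5, 236.0 ± 24.7 in those without, 231.9 ± 48.5 in CD4 T cells and 155.7 ± 36.8 in Treg. B cells were above CD8 T cells with Ccl5 in 7 of 7 libraries, those above CD8 T cells without Ccl5 in 7 of 7, and CD4 T cells above Treg in 7 of 7 (exact paired permutation p = 0.0156 each, two-sided, the smallest that 7 libraries allow, adjusted p = 0.125 over 32 pairs of neighbours). CD8 T cells without Ccl5 and CD4 T cells did not differ beyond their spread. None of the 64 neighbour pairs of both tissues passed after adjustment. An adjusted p under 0.05 would need many pairs at the smallest possible p at once. The lack of passing pairs is therefore no result about the levels.

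**Figure D4:**
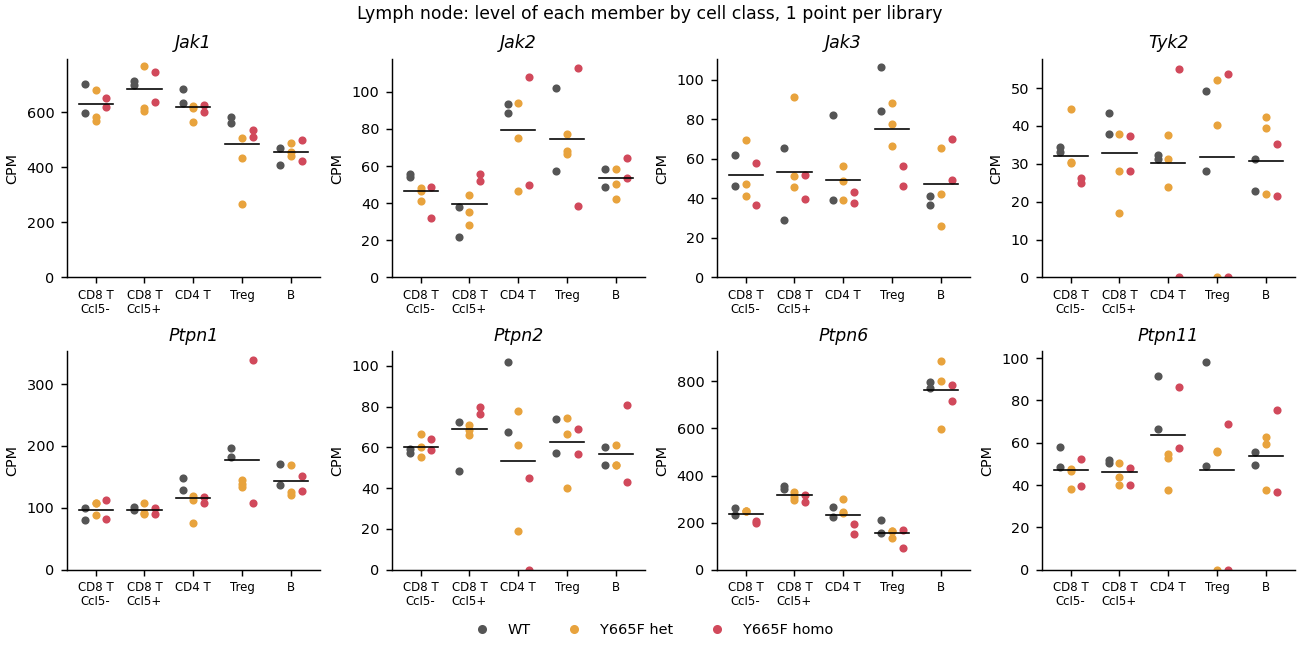
Level of each member (y axis, CPM from 0) in 5 lymph node classes, with 1 point per library in the color of its genotype and a line at the mean of 7 libraries. Ptpn6 stands at 764.2 CPM in B cells and at 319.5 CPM or less in the T cell classes, whereas Tyk2 means lie between 30.2 and 32.8 CPM in all 5 classes.

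Jak1 in LN ran from 683.8 ± 65.4 CPM in CD8 T cells with Ccl5 through 629.1 ± 50.9 without Ccl5, 621.3 ± 36.0 in CD4 T cells and 485.2 ± 107.4 in Treg to 454.7 ± 34.0 in B cells. CD4 T cells were above Treg in 7 of 7 libraries (exact permutation p = 0.0156, adjusted p = 0.125) and CD8 T cells with Ccl5 above those without in 6 of 7 (exact permutation p = 0.0312, adjusted p = 0.20), and the other neighbours did not differ beyond their spread. Jak2 ran from 79.4 ± 23.4 CPM in CD4 T cells through 74.7 ± 25.7 in Treg, 53.8 ± 7.36 in B cells and 46.6 ± 8.03 in CD8 T cells without Ccl5 to 39.4 ± 12.4 with Ccl5. Jak3 was at 75.1 ± 20.4 CPM in Treg and between 47.2 ± 15.8 (B cells) and 53.5 ± 20.1 CPM in the others. Ptpn1 was at 177.4 ± 77.6 CPM in Treg, 142.9 ± 20.6 in B cells, 115.7 ± 22.4 in CD4 T cells and 97.0 ± 13.5 and 97.0 ± 6.58 in CD8 T cells without and with Ccl5. For Jak2, Jak3, Tyk2, Ptpn1, Ptpn2 and Ptpn11 no neighbours in the order differed beyond their spread. Classes further apart in the order were not tested against each other, so a graded difference is not covered. Ptpn2 means lay between 53.1 and 68.9 CPM and Ptpn11 means between 46.4 and 63.8 CPM.

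In BM the order was another. Jak1 was highest in stem/multipotent cells (155.2 ± 20.5 CPM, n = 6) and lowest in monocytes (78.9 ± 20.9), below GMP (98.5 ± 19.7) in 6 of 6 libraries. Ptpn6 was highest in monocytes (102.8 ± 17.0 CPM), above GMP (62.2 ± 12.2) in 6 of 6 libraries, and lowest in erythroid cells (33.9 ± 7.89), below B lineage cells (53.5 ± 25.2) in 6 of 6. Ptpn1 was at 44.5 ± 12.8 CPM in monocytes, 42.2 ± 8.34 in stem/multipotent cells, above B lineage cells (35.6 ± 9.34) in 6 of 6 libraries, and 24.8 ± 6.70 in erythroid cells, below GMP (34.6 ± 7.91) in 6 of 6. Tyk2 was higher in GMP (10.4 ± 3.76 CPM) than in erythroid cells (7.52 ± 1.35), and Ptpn11 in B lineage cells (55.2 ± 24.0) than in monocytes (48.0 ± 24.7), also in 6 of 6. Each of these 7 neighbour pairs had an exact permutation p of 0.0312, the smallest that 6 libraries allow, and an adjusted p of 0.143 over 32 pairs. Jak2 (17.4 to 29.7 CPM), Tyk2 (7.52 to 14.9 CPM), Ptpn2 (42.5 to 62.1 CPM) and Ptpn11 (44.5 to 56.2 CPM) had their highest mean in stem/multipotent cells and their lowest in erythroid cells. The other neighbour pairs did not differ beyond their spread, and each order stands on libraries of 3 genotypes. As in LN, classes further apart in the order were not tested against each other. In the megakaryocyte gate, which was not tested, Ptpn11 was at 124.3 and 119.0 CPM in WT, at 135.9 and 115.4 CPM in Y665F and at 105.4 and 73.8 CPM in Y665H.

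Over the 15 means of class and genotype in BM, the genes most like each member in Pearson r of log2(CPM + 1) were Gnb4 (0.94) and Senp7 (0.89) for Jak1, mt-Co2 (0.93) and Gapvd1 (0.93) for Jak2, Zmynd11 (0.94) and Dnmt3a (0.94) for Jak3, and 5031425E22Rik (0.90) and Dhx30 (0.87) for Tyk2. For the phosphatases they were Cbl (0.95) and Tapbp (0.94) for Ptpn1, Gatd1 (0.95) and Trp53rka (0.90) for Ptpn2, Selplg (0.95) and Arhgap9 (0.94) for Ptpn6, and Anapc2 (0.96) and Kdm5a (0.96) for Ptpn11. These are the highest of at least 5386 genes each, over points that share libraries and depth, and are given as a description. Cbl, a ubiquitin ligase, is a member of the list of JAK-STAT regulators.

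Spleen held 1 library per genotype, so ratios there compare libraries, with exact 95% intervals that cover counting error only. Of 138 ratios with at least 50 UMIs, 9 reached 1.5-fold, beside 7.84% of all gene and class ratios for Y665H against WT and 14.9% for Y665F against WT. The count pools both genotypes, and nothing is read from it.

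In spleen T cells, Jak3 was higher in the Y665H library than in the WT library. It was at 20.3 CPM in Y665H and 11.03 CPM in WT CD8 T cells (184 and 125 UMIs), a ratio of 1.84 (1.46 to 2.32), beside 4.21% of genes past 1.5-fold in that class. The ratio was 1.78 (1.31 to 2.43) in CD8 T cells without Ccl5 and 1.93 (1.34 to 2.80) in those with it. In CD4 T cells it was 1.64 (1.27 to 2.13), from 20.7 and 12.6 CPM, beside 4.05% of genes. The 2 CD8 T cell sets split by Ccl5 are parts of the first. Over all cells the Y665H ratio of Jak3 was 1.45 (1.29 to 1.64). In B cells it was 1.41 (1.003 to 2.01), from 12.98 CPM in Y665H and 9.17 CPM in WT, and in NK cells 0.92 (0.53 to 1.58). In Y665F the CD8 T cell ratio of Jak3 was 1.26 (1.004 to 1.58) at 13.9 CPM. Neutrophil transcripts within CD8 T cells were at 3270 CPM in Y665H, 1596 CPM in Y665F and 27.1 CPM in WT, and hemoglobin transcripts at 1797, 2.24 and 11.7 CPM. Their part in the Jak3 ratio was not tested.

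**Figure D5:**
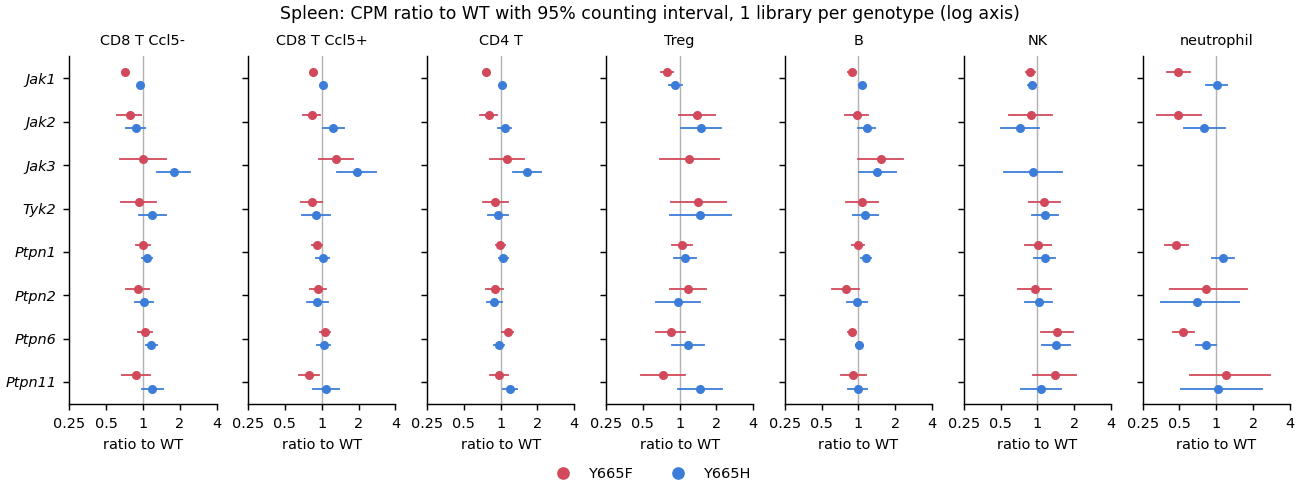
Ratio of each member's CPM in Y665F or Y665H to that in WT spleen (x axis, log scale) in 7 classes, 1 library per genotype, with exact 95% counting intervals. Jak3 of Y665H lies at 1.64 to 1.93 in the T cell classes apart from Treg, and 4 members of Y665F neutrophils lie at 0.47 to 0.54.

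The other ratios past 1.5-fold were of Y665F, and no ratio of Tyk2, Ptpn2 or Ptpn11 with at least 50 UMIs reached it. In neutrophils, Jak1 was at 0.49 (0.40 to 0.60), Jak2 at 0.49 (0.33 to 0.74), Ptpn1 at 0.47 (0.38 to 0.59) and Ptpn6 at 0.54 (0.44 to 0.66) of WT, in a class where 59.7% of genes were past 1.5-fold and the WT values rested on 80 cells and, for Jak1, 114 UMIs. The gated cells also differed in their markers: neutrophil transcripts were at 302785 CPM in Y665F and 107085 CPM in WT, naive T transcripts at 358.6 and 1117 CPM, and the median cell held 8537 and 2951.5 UMIs. Their part in these ratios was not tested. Jak3 in B cells was at 1.52 (0.98 to 2.32), an interval that includes 1. Across all genes the median log2 ratio of Y665F to WT was -0.18 over all cells, between -0.16 and -0.14 in CD8 and CD4 T cells and -0.23 in neutrophils. On that scale Jak1 of Y665F was at -0.32 over all cells, which is -0.14 from the median. Jak1 of Y665F was below WT in every class. It was at 463.3 and 649.6 CPM (Y665F and WT) in CD8 T cells without Ccl5 and at 443.9 and 590.1 CPM in CD4 T cells. Jak1 stood out in natural killer (NK) cells, at 1398 CPM in WT, 1221 CPM in Y665F and 1265 CPM in Y665H, beside 565.3 to 668.4 CPM in CD8 T cells of the same libraries. Tyk2 was likewise at 96.9 to 111.3 CPM in NK cells and 24.5 to 25.2 CPM in CD8 T cells. In spleen as in LN, Ptpn6 was higher in B cells (400.2 to 455.5 CPM) than in CD8 T cells (118.1 to 135.1 CPM) of each library.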

How the data were processed

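The deposited files hold raw UMI counts for each gene and cell barcode, made by the authors with Cell Ranger (matrix headers 5.0.0 for LN, 6.0.0 for spleen and BM) against mm10; the submitters' processing notes also name Seurat 4.0. T cell receptor libraries were not used. The labels name a 3′ kit and the methods a 5′ kit, so values were compared within a tissue only. Whether BM was enriched is not given in the sources used here. Barcodes were used from 200 detected genes upward if mitochondrial UMIs made up no more than 10%, and doublets were removed at an expected rate in proportion to the number of barcodes, leaving 4093 to 15910 cells a library (2193780 to 42630407 UMIs in these cells). UMIs were summed per library and gate. Gates used UMIs of marker genes (T cells Cd3d, Cd3e or Cd3g with Cd8a, Cd8b1 or Cd4; B cells Cd79a, Cd79b and Ms4a1 among others; at least 2 stem or 3 other markers in BM), and a class needed 30 cells in every library.

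The 3 genotypes of a tissue entered 1 edgeR 4.0.16 quasi-likelihood fit per class (R 4.3.3, TMM, filterByExpr), with a call at a Benjamini-Hochberg adjusted p under 0.05 over all genes of the class. The fit was also run on simulated counts of LN CD8 T cells and BM GMP with known fold changes. These had the same spread for every gene and no effect of sex or cell makeup. The outcome is not reported here, and nothing is read from it. Ptpn11, Ptpn2 and Tyk2 in LN Treg, Jak2, Jak3 and Tyk2 in BM monocytes and Tyk2 in BM B lineage cells were below the filter. Spleen ratios compared genes with at least 50 UMIs. Levels between neighbouring classes used exact sign-flip permutation of log2(CPM + 1). Alternatives were DESeq2 1.42.0, RLE scaling, no filter on low counts, an added fold threshold, a replicate block, doublets kept, at least 500 genes, stricter gates and leaving out libraries. Chosen after seeing the data were at least 1200 UMIs per BM barcode, library totals without TMM, other cell sets for spleen and levels, and centred spleen ratios. A list gene was named if it was among the 3 largest called changes of its list; some are not reported here. Members and lists were chosen with earlier results of these data known. The main fit of every class had genotype only. The replicate number, which in BM is also the sex, entered only in the block alternative. In BM, only erythroid cells had every same-number correlation of deviations at 0.104 or more. Intervals and floors (3 UMIs) cover counting error only.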

Additional observations from a re-analysis of the deposited data

How the results depend on the processing

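No called member value turned its direction under an alternative that was run. Some values near 0 that were not called did change sign, such as the difference of Ptpn6 between granulocyte-monocyte progenitors and erythroid cells in Y665F against WT (0.04, -0.05 with RLE scaling and -0.11 with doublets kept) and the Y665F spleen log2 ratio of Ptpn1 over all cells (-0.10, and 0.08 relative to the median of all genes). In LN, 1 member was called in homo against WT with no filter on low counts and 1 with library totals without TMM (0 as reported) and 0 to 1 when libraries were left out in turn (1 without WT replicate 2); het against WT gave 0 to 1 (1 without WT replicate 1). In BM, Y665F against WT gave 4 calls, 2 with a log2 fold change over 1 also required, 7 with the replicate block, and 1 to 5 when libraries were left out (1 without Y665F replicate 2, 2 without WT replicate 2). Y665F against Y665H gave 9 calls, 4 with that fold threshold, 12 with the block, and 0 to 10 when libraries were left out (0 without Y665H replicate 1). Shares of all genes called under these alternatives are not reported here. Whether such shifts are particular to the members is therefore not read from the counts. The counts for Y665H against WT, homo against het, spleen, the levels across classes and the interaction kept within 1.5 times under every alternative run. Of the values of single called members, 164 kept their call and 43 lost it, all in the same direction. Without TMM, Y665F against WT gave 3 calls and Y665F against Y665H gave 9, the 4 calls of Ptpn2 and that of Jak2 in GMP were lost, and 26 member values that were not called changed sign. Ptpn2 over all BM cells, not called in Y665F against WT, was called with DESeq2 (-0.57, adjusted p = 0.033), RLE scaling, doublets kept, at least 500 genes, at least 1200 UMIs or without WT replicate 1. The cause of these changes was not tested. With 2 libraries a group, and 1 in spleen, small differences could not be resolved, and Jak3, Tyk2 and all members in Treg rest on few UMIs in shallow libraries.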
